A study of Homo sapiens with 8 samples.

Results

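The guanylate-binding proteins GBP1, GBP2, GBP3, GBP4 and GBP5 were followed across 8 expression arrays of OVCAR-3 cells. The 5 genes were chosen by symbol, and all 6 probes of the array annotated to those symbols were taken, 2 for GBP1 and 1 for each other gene. All 5 are among the 17297 features tested, of which 12222 carry a gene symbol. OVCAR-3 is an established human ovarian carcinoma cell line. The study compared cells given siRNA against HBO1 (siHBO1, 4 arrays) with cells given a scramble siRNA (siCTRL, 4 arrays). In both groups RNA was taken 48 h after transfection, and each group holds replicates numbered 1 to 4. The question was which transcripts differ once HBO1, the histone acetyltransferase encoded by KAT7, is targeted. Both groups were transfected, and cells without siRNA were not analysed here. The labels do not say that replicates were separate cultures, so the spread between arrays may be technical.

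Guanylate-binding proteins are large GTPases of the dynamin superfamily that are made in epithelial, endothelial and immune cells after exposure to interferon, most strongly interferon gamma. They assemble on the surface of bacteria and on the vacuoles of intracellular parasites, where they recruit caspase-4 and other effectors of cell-autonomous immunity. GBP1, GBP2 and GBP5 carry a lipid (prenyl) group at their C-terminus that anchors them to membranes, whereas GBP3 and GBP4 are recruited through other members. Their promoters are classic targets of the interferon pathway, which acts through 2 short DNA motifs, the ISRE and the GAS.

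Median probe intensity ran from 224 to 324 over the 8 arrays, and 43.3% to 46.7% of probes were detected, meaning a detection p-value under 0.05. The replicate 1 arrays of both groups stood apart from the other 6 on the first principal component, which held 58.2% of the variance. KAT7, the targeted gene, was read by 1 probe. Its normalized log2 intensity ran from 7.35 to 7.97 on the siCTRL arrays and was 6.66, 6.86 and 7.04 on siHBO1 replicates 1 to 3. The array labelled siHBO1 replicate 4 stood at 7.43, inside the siCTRL range only because siCTRL replicate 4 was itself low. The KAT7 probe thus does not bear out the labels of the replicate 4 pair, and values are given below with replicate 4 named. The KAT7 difference, siHBO1 minus siCTRL, was -0.73 (SE 0.19) over all 8 arrays. By limma at an adjusted p under 0.05 it was not called, with or without the replicate number as a block. All 11 epithelial and ovarian carcinoma markers, among them EPCAM, PAX8, WT1 and MUC16, were detected on at least 4 arrays.

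The promoters of GBP1, GBP3 and GBP4 are shown because the family is known as an interferon target, and the motifs that carry that response can be read in them. RefSeq entries of build GRCh38.p14 were at hand for 3 of the 5 genes, and GBP2 and GBP5 were not among them. Each window covers 250 bases before and 50 bases after the annotated start of the gene, on the minus strand of chromosome 1, at chr1:89065159-89065458 for GBP1, chr1:89022817-89023116 for GBP3 and chr1:89198893-89199192 for GBP4. Capitals mark matches to the ISRE, searched as GAAA, any 2 bases and GAAA, and to the GAS, searched as TTC, any 3 bases and GAA, on both strands. The sequences read 5′ to 3′ along each gene.
GBP1: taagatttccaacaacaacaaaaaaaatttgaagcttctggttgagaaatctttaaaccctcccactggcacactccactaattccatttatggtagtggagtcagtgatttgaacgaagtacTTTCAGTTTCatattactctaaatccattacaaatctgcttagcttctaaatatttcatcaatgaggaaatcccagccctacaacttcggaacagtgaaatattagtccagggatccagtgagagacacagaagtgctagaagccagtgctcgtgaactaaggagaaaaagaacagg
GBP3: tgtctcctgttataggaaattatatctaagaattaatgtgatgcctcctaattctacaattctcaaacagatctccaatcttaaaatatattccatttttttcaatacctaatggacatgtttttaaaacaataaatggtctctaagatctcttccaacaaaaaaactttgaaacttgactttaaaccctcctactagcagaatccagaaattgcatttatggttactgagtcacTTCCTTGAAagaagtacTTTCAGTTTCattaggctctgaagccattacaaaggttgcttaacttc
GBP4: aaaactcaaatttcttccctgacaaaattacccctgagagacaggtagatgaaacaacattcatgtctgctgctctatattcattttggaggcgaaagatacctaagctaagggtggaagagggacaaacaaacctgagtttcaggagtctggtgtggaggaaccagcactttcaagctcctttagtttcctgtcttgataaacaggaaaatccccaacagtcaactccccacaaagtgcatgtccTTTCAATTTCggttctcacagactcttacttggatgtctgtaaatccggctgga

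Each of the 3 promoters held 1 ISRE match, and in each the match lay on the strand opposite to the gene. It read GAAACTGAAA in GBP1 and GBP3 and GAAATTGAAA in GBP4. Counted from the annotated start, the match in GBP1 ran from base -127 to base -118, that in GBP3 from base 3 to base 12 and that in GBP4 from base -4 to base 6. GBP3 also held a GAS match, TTCCTTGAA, from base -15 to base -7. The longest run that GBP1 and GBP3 shared was 19 bases, gaagtacTTTCAGTTTCat, and held the ISRE match. Of 35116 RefSeq promoters of the same length, 3.57% held an ISRE match and 7.66% a GAS match. The windows of GBP6 and GBP7, the other human genes of the family, held neither. A match describes letters only and shows no binding.

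**Figure D1:**
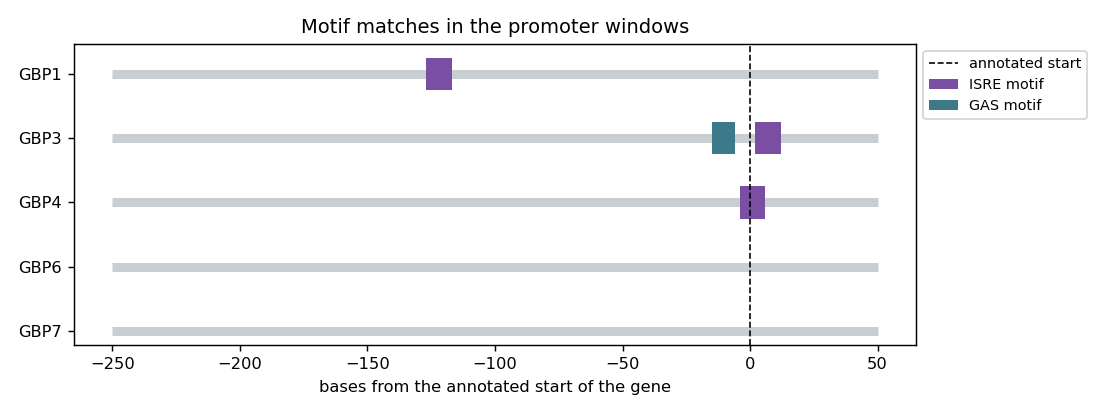
Motif matches in the promoter windows of 5 family genes; the x axis gives bases from the annotated start and the y axis the gene. Coloured boxes are matches to the ISRE or GAS letters: GBP1, GBP3 and GBP4 each hold 1 ISRE match, GBP3 alone of the 5 windows holds a GAS match, and GBP6 and GBP7 hold neither.

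All 5 GBP genes were expressed in the cells, with every one of the 6 probes detected on all 8 arrays, and all 5 had higher mean levels in siHBO1 than in siCTRL. The log2 difference, siHBO1 minus siCTRL, ran from 0.23 for GBP2 to 0.78 for GBP4, with a median of 0.51 over the 5 genes against -0.01 over all features tested. The 5 genes were proposed with this comparison already seen, so these differences describe them and no p-value is given for any of them. Arrays read a mixture of cells, so more RNA per cell and more cells that express a gene cannot be told apart.

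GBP1, which binds bacterial lipopolysaccharide and starts the assembly of the other members, was read by 2 probes. On probe ILMN_2148785 the 4 siCTRL arrays, in order of replicate number, gave normalized log2 levels of 11.16, 11.48, 11.35 and 11.30. The 4 siHBO1 arrays gave 11.52, 12.00, 11.77 and 12.02 in the same order. The lowest siHBO1 array, replicate 1, stood just above the highest siCTRL array, replicate 2, so the groups did not overlap. The difference was 0.51 (SE 0.14, n = 4 each), or 1.42-fold. On the other probe, ILMN_1701114, the levels were 10.38, 10.93, 10.51 and 10.84 in siCTRL and 11.16, 11.29, 11.40 and 11.50 in siHBO1. There too every siHBO1 array was above every siCTRL array, and the difference was 0.67 (SE 0.15), or 1.60-fold. The 2 probes tracked each other over the 8 arrays (Pearson r = 0.90). Before any correction the deposited intensity on ILMN_2148785 ran from 1782 to 3628 in siCTRL and from 2506 to 5041 in siHBO1, and on ILMN_1701114 from 1131 to 2545 and from 2021 to 3604. On that uncorrected scale both probes overlapped between groups, and with median scaling or without normalization 0 of the 5 genes kept their groups apart.

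GBP2, a prenylated member that acts with GBP1 and that, with GBP5, inhibits the protease furin, showed the lowest difference of the 5. Its levels were 10.58, 10.45, 10.72 and 10.73 on siCTRL replicates 1 to 4. They were 10.61, 11.11, 10.86 and 10.82 on siHBO1 replicates 1 to 4. Replicate 1 of siHBO1 lay inside the siCTRL range and the other 3 siHBO1 arrays lay above it. The difference was 0.23 (SE 0.12), or 1.17-fold, and pair 2 gave 0.66, while pairs 1, 3 and 4 gave 0.03, 0.14 and 0.09. Without siHBO1 replicate 2 the difference of GBP2 was 0.14, and without replicate 2 of both groups 0.09.

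GBP3, which takes part in caspase-4 activation on coated bacteria, was read at 1.77 to 2.39 times the median intensity of its array. Its levels were 8.16, 8.41, 8.88 and 8.40 on siCTRL replicates 1 to 4. They were 8.70, 8.75, 8.80 and 8.73 on siHBO1 replicates 1 to 4. The siHBO1 arrays sat close together (SD 0.04), whereas the siCTRL arrays were spread (SD 0.30), and siCTRL replicate 3 stood above all 4 siHBO1 arrays. The difference was 0.29 (SE 0.15), or 1.22-fold, and pair 3 ran the other way, at -0.07. It was 0.19 without siCTRL replicate 1 and 0.18 without background correction.

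GBP4, which joins the GBP1 coat and takes part in recruiting caspase-4, showed the highest difference. Its levels were 8.95, 9.59, 9.51 and 9.84 on siCTRL replicates 1 to 4. They were 9.76, 10.34, 10.35 and 10.54 on siHBO1 replicates 1 to 4. The groups overlapped by 1 array of each group, since siHBO1 replicate 1 lay below siCTRL replicate 4. The difference was 0.78 (SE 0.25), or 1.71-fold. Set against the control of the same number, the 4 differences were close to each other, at 0.81, 0.76, 0.84 and 0.70.

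GBP5, a prenylated member of the Golgi membrane that has been tied to the NLRP3 inflammasome, was close to GBP4 in size and pattern. Its levels were 8.54, 9.14, 9.30 and 9.30 on siCTRL replicates 1 to 4. They were 9.22, 9.81, 10.22 and 9.91 on siHBO1 replicates 1 to 4. Again siHBO1 replicate 1 fell below the upper siCTRL arrays and the other 3 siHBO1 arrays stood above them all. The difference was 0.72 (SE 0.28), or 1.65-fold, with 0.68, 0.67, 0.91 and 0.61 in the numbered pairs.

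**Figure D2:**
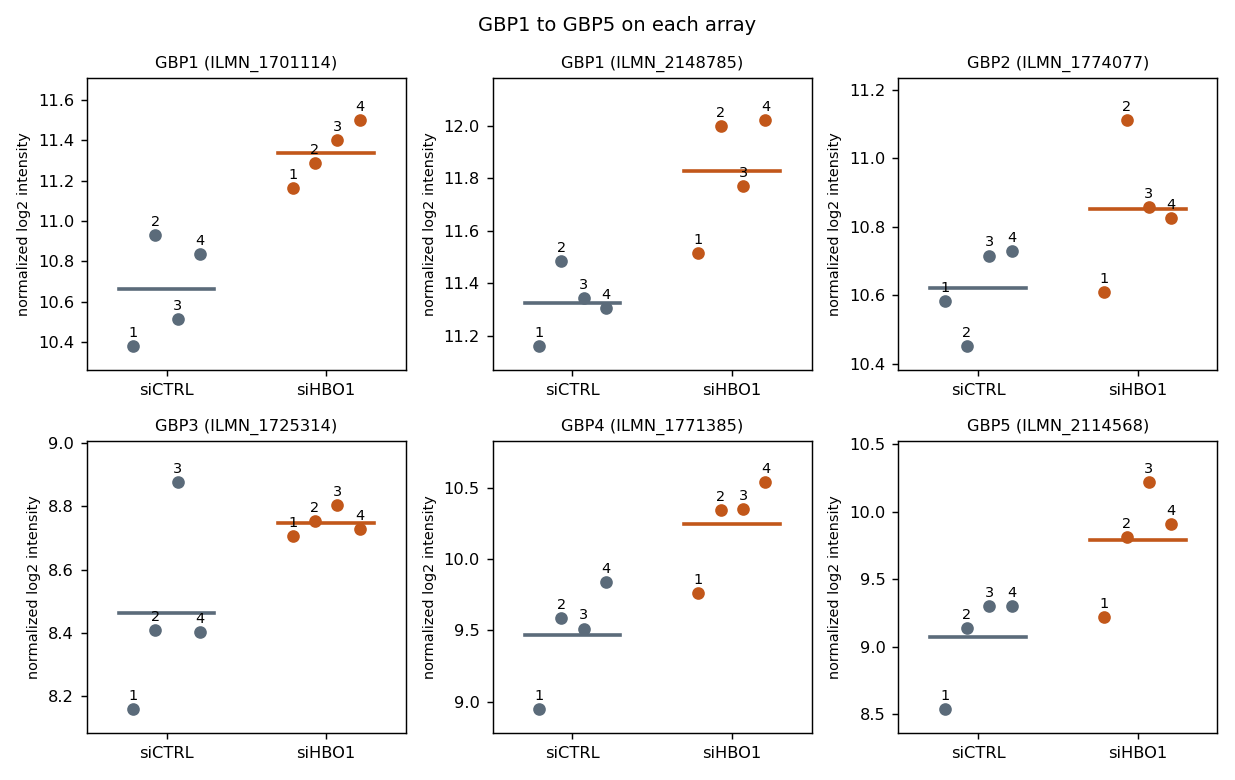
Normalized log2 intensity (y axis) of the 6 GBP probes on each array, by group (x axis); points are arrays labelled with their replicate number and bars are group means of 4. Both GBP1 probes separate the groups, GBP4 and GBP5 overlap through siHBO1 replicate 1 alone, and the GBP3 probe has siCTRL replicate 3 above every siHBO1 array.

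The replicate 1 arrays carried the lowest mean level of the 5 genes in both groups, though for GBP2 the lowest siCTRL array was replicate 2. The mean log2 level of the 5 genes was 9.48, 9.81, 9.95 and 9.92 over the siCTRL arrays in order of number. Over the siHBO1 arrays it was 9.96, 10.40, 10.40 and 10.41. Thus siHBO1 replicate 1 stood only just above the highest siCTRL array. The group means were 9.79 ± 0.22 and 10.29 ± 0.22 (SD, n = 4 each). The GBP mean on siHBO1 replicate 4, whose KAT7 level lay inside the siCTRL range, differed by 0.01 or less from those of siHBO1 replicates 2 and 3. The median difference of the 5 genes was 0.55, 0.66, 0.43 and 0.61 in pairs 1 to 4, beside KAT7 differences of -1.01, -1.10, -0.89 and 0.08.

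Counted by call rules over the whole table, few members crossed a threshold. By limma without a block, 0 of the 5 were called higher at a Benjamini-Hochberg adjusted p under 0.05, where 0.0289% of all features were called higher and 0.00578% lower. With the replicate number as a block, 2 of the 5 were called higher, GBP4 and GBP5, where 0.272% of all features were called higher and 0.0636% lower. Both calls were lost, leaving 0 of 5, when replicates 1, 2, 3 or 4 were left out of both groups under the block. Only GBP1 had all 4 siHBO1 arrays above all 4 siCTRL arrays, as did 1.35% of all features. Without the replicate 1 arrays, a choice made after seeing the data, GBP1, GBP2, GBP4 and GBP5 had all 3 siHBO1 arrays above all 3 siCTRL arrays, as did 5.58% of all features. All 4 numbered pairs were higher for every gene but GBP3, and for 6.96% of all features. The members were chosen with this comparison known, so nothing is read from these shares.

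**Figure D3:**
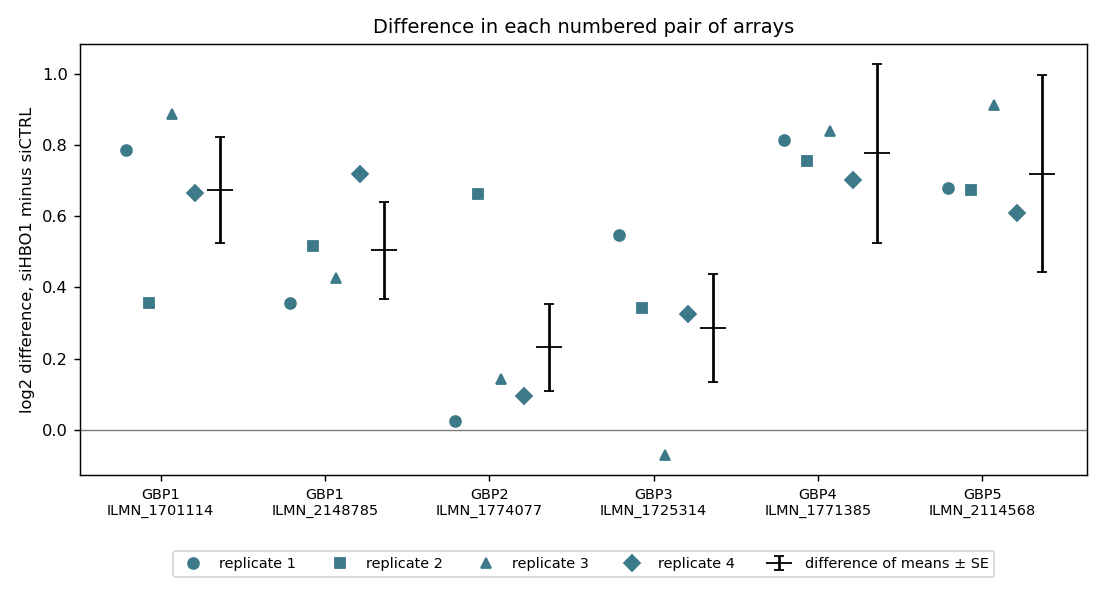
Log2 difference, siHBO1 minus siCTRL (y axis), in each numbered pair of arrays for the 6 GBP probes (x axis), with the difference of group means ± SE beside them. GBP4 lies between 0.70 and 0.84 in all 4 pairs, GBP2 is at 0.66 in pair 2 and under 0.15 in the others, and GBP3 falls to -0.07 in pair 3.

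Within the family, GBP4 and GBP5 had the larger differences and GBP2 and GBP3 the smaller ones. GBP4 and GBP5 exceeded both GBP2 and GBP3 in 4 of 4 pairs, by 0.55 and 0.49 for GBP4 over GBP2 and over GBP3 and by 0.49 and 0.43 for GBP5 over the same genes. On its brightest probe, ILMN_2148785, GBP1 lay between them, above GBP2 and GBP3 and below GBP4 and GBP5 in 3 of 4 pairs each. Its place depended on the probe. On ILMN_1701114 its difference was 0.67, with 0.79, 0.36, 0.89 and 0.67 in pairs 1 to 4, close to the 0.72 of GBP5. These are differences between changes on the log2 scale, not between levels, which different probes do not allow. Over the 8 arrays the levels of GBP4 and GBP5 correlated most closely (r = 0.95, and 0.88 after the group means were removed). Across the 14 combinations of probes from different genes r ran from 0.53 to 0.95, and from -0.03 to 0.88 without the group means. All these values share the same 8 arrays and the low replicate 1 pair.

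The human family members GBP6 and GBP7 lie in the same gene cluster and were not detected. GBP6 had 2 probes and GBP7 had 1, and none of these was detected on any array (lowest detection p-values 0.056 and 0.195). The transcript of the pseudogene GBP1P1 was dim but detected on all 8 arrays, at 6.70 to 6.96 in siCTRL and 6.91 to 7.64 in siHBO1. Its difference was 0.38 (SE 0.16), with 3 of 4 pairs higher. Probe sequences were not used here, so whether GBP1P1 and GBP1 transcripts reach each other's probes was not tested.

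The tested genes that flank the GBP cluster on chromosome 1 had differences below that of every GBP member, though only narrowly below GBP2. In the RefSeq order, GBP3, GBP1, GBP2, GBP7, GBP4, GBP5 and GBP6 follow each other, with RBMXL1 on one side and LRRC8B on the other. Of the 11 protein-coding genes that are either the 5 nearest on each side of the 5 members or lie between them, 7 were tested. Their differences ran from -0.03 for PKN2 and LRRC8D to 0.20 (SE 0.19) for RBMXL1, with a median of 0.09. GBP2, at 0.23 (SE 0.12), lay within 1 SE of RBMXL1. Without replicate 2 of both groups GBP2 stood at 0.09, inside the range of the flanking genes. None was called higher or lower with or without the block, and all 7 had overlapping groups.

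Of 18 genes known to be induced by type I interferon, all 18 had positive differences, with a median of 1.35 against 0.51 for the GBP genes. On the brightest probe of each gene, all but IFI6, at 0.05 (SE 0.31), exceeded every GBP gene. The other kept probe of IFI6 stood at 1.95, so its probes disagreed. In pairs 1 to 4 their median was 1.89, 1.02, 1.31 and 1.09, so the gap to the GBP genes was widest in pair 1. Without the block 0 of these 18 were called in the unweighted fit of all 8 arrays. With the block 11 rose, among them OAS2 by 2.58 (SE 0.45), IFI44L by 1.86 (SE 0.35) and IFITM1 by 1.74 (SE 0.30). These SEs, and those of IDO1 and USP18 below, are limma's from the fit without the block. With limma array weights and no block 11 were called higher as well, and 3 without the block and without both replicate 1 arrays. OAS2 was detected on 7 of 8 arrays. Under the block, 1 of the 18 was called when replicate 1 was left out of both groups, 0 without replicate 2, 0 without replicate 3 and 9 without replicate 4. Of 12 genes that interferon gamma induces preferentially 9 were tested, with a median of 0.14, and CIITA, CXCL9 and HLA-DPA1 were detected on no array. Of those 9, 0 were called in the unweighted fit of all 8 arrays without the block and 1 rose with it. This was IDO1, a tryptophan-degrading enzyme, by 1.08 (SE 0.29), on a probe detected on 6 arrays. That call was lost under the block when any 1 of the 4 numbered pairs was left out. IDO1 was also called with array weights and no block. No test sets one list against another, and MX1, USP18, IRF1, SOCS1 and CIITA each stand on 2 lists.

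**Figure D4:**
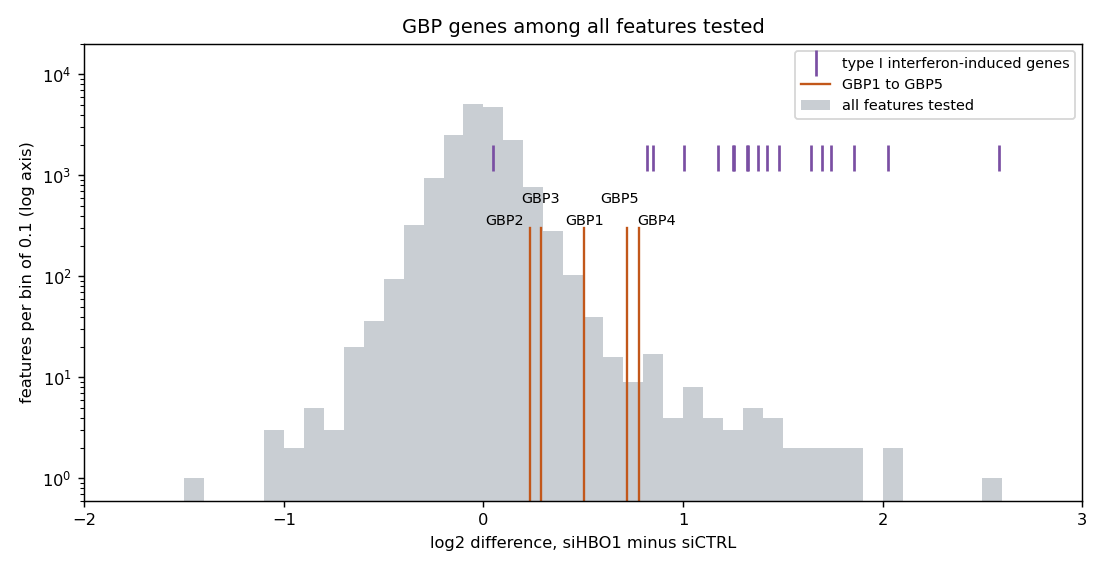
Distribution of log2 differences, siHBO1 minus siCTRL (x axis), over 17297 features, as features per bin of 0.1 on a log y axis, with the 5 GBP genes as vertical lines and 18 type I interferon-induced genes as ticks. The GBP genes lie between 0.23 and 0.78 and 17 of the 18 ticks lie to the right of all of them; the exception, IFI6, is drawn at 0.05 for its brightest probe and stood at 1.95 on its other.

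Ligands that induce GBP genes were mostly not detected. Of 12 interferon and cytokine genes with probes, TNF alone was tested, at -0.15 (SE 0.18), and IFNG, IFNA1, IFNA2, IFNL1, IFNL2, IFNL3 and IL1B were detected on no array. IFNB1 was detected on 1 array. All 9 receptor and JAK genes were tested and 0 were called with or without the block (median 0.09), with the interferon lambda receptor IFNLR1 at 0.24 (SE 0.10) and IFNAR2, a chain of the type I receptor, at 0.23 (SE 0.11).

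Of 13 transcription factors of the pathway 7 were tested (median 0.14), and 1 rose, with and without the block. This was IRF7, a master regulator of type I interferon genes, at 0.97 (SE 0.11, 1.96-fold). It was called under 9 of 24 alternatives. Without the block the call was lost with median scaling, without normalization, with the authors' values and with the mean of its probes. It was also lost there without both replicate 4 arrays and when any 1 array but siHBO1 replicate 1 was left out. Under the block it was lost without pairs 1, 2 or 3. IRF1, a factor known to drive GBP genes, stood at 0.14 (SE 0.12) and was not called. Of 9 brakes on the signal (median 0.02), 1 rose with the block and 0 without it. It was USP18, which removes ISG15 and blocks the type I receptor, at 1.26 (SE 0.22). This call too was lost under the block without any 1 of the 4 pairs. USP18 was also called with array weights and no block.

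Of 13 tested inflammasome and effector genes (16 listed, median 0.05) 0 were called with or without the block. The inflammatory caspase CASP1 stood at 0.34 (SE 0.35), with all 4 pairs between 0.27 and 0.43, the DNA sensor AIM2 at 0.23 (SE 0.19), and CASP4, the caspase that GBP coats activate, at 0.03 (SE 0.15) on its brightest probe and up to 0.51 on its other 2. All 6 enzymes that attach and process prenyl groups were tested and 0 were called (median -0.03), with the CaaX protease RCE1 at -0.09 (SE 0.10) and the farnesyltransferase subunit FNTB at -0.08 (SE 0.13). Of 15 other dynamin-like and interferon-inducible GTPases tested out of 20, 0 were called (median -0.04). The interferon-inducible MX1 and MX2, which restrict viruses, had the highest differences there, at 0.82 (SE 0.29) and 0.44 (SE 0.17).

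**Figure D5:**
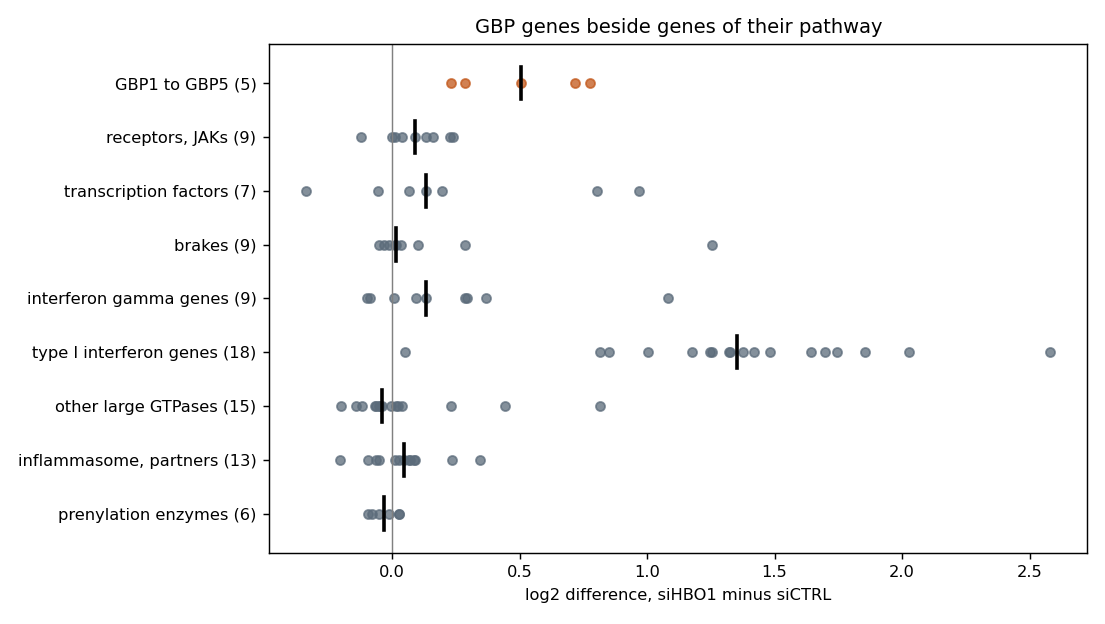
Log2 differences, siHBO1 minus siCTRL (x axis), of the 5 GBP genes and of the tested genes of 8 lists (the ligand list, with TNF alone tested, is left out) (y axis, number of genes in brackets); points are genes and black bars are medians. The median is 0.51 for the GBP genes, 1.35 for the type I interferon genes and between -0.04 and 0.14 for the other 7 lists.

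The 6 tested genes whose levels followed the mean of the 5 GBP genes most closely over the 8 arrays were CPA6, L3MBTL3, OAS1, YRDC, IFIT3 and MYB, with r from 0.96 to 0.98. After the group means were removed r ran from 0.90 to 0.99, on the same 8 arrays with the low replicate 1 pair. Their differences ranged widely, from 0.12 for YRDC to 1.48 for IFIT3. These correlations were picked as the highest over all named genes and carry no p-value.

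Markers of other cells that make GBP proteins were mostly not detected. Of 10 leukocyte markers 9 had probes, 2 were detected on at least 4 arrays, CD14 and CD68, and 6, PTPRC and CD3E among them, on no array. The summed level of those detected ran from 1487 to 5621 in siCTRL and from 1484 to 5633 in siHBO1, on the linear normalized scale. Of 6 endothelial markers 1 was detected on at least 4 arrays, VWF, at 196 to 298 in siCTRL and 159 to 241 in siHBO1, while PECAM1 and CDH5 were detected on no array. Of 5 fibroblast markers COL1A1 and COL1A2 were detected, with a sum of 238 to 466 in siCTRL and 298 to 354 in siHBO1. No marker of these lists was called in either direction.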

How the data were processed

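RNA from 8 samples was hybridised to single-colour Illumina BeadChips. The deposited file gives an intensity per probe on a linear scale with background, and a detection p-value per probe, both from the authors. The authors' processed values, on a log2 or similar scale that is not named, served as an alternative. GenomeStudio and lumi are named per the submitters' processing notes, with roles, versions and genome build not given in the sources used here.

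Intensities of 47312 probes were background-corrected with nec of limma 3.58.1 (offset 16, R 4.3.3), then log2-transformed and quantile-normalized. Probes detected on at least 4 of 8 arrays were kept (21377), and a gene was its brightest kept probe (17297 features). Symbols come from the platform annotation (30108 probes with 1 symbol, 8 with several, 17196 with none), matched to RefSeq GRCh38.p14 for 30069 probes. lmFit and eBayes compared siHBO1 with siCTRL over all features, with Benjamini-Hochberg adjustment. The fit was also run on simulated data without a replicate effect, which does not check how calls depend on the replicate numbers here. Fitted SEs of genes outside the family are limma's from the fit without the block, also beside calls made with it. Those of GBP probes come from the 2 group variances. Intensities carry no count, so the number of arrays limits the precision.

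Once group means were subtracted, arrays sharing a number correlated over all features (r = 0.78, 0.32, 0.40 and 0.22). Every value passed 0.1, the mark used here to treat the numbers as pairs, and the block is given where it changed a call. Only for replicate 1 was every array of another number less close. For replicates 2, 3 and 4 an array of another number reached r = 0.40, 0.40 and 0.38, above that of the same number. Their pairing is thus not established, and calls made with the block rest on it. Members and gene lists were chosen with earlier results of these data known. Of 144 listed symbols 5 had no probe. Named from each list were up to 3 called genes with the largest difference, or else the 2 largest as values. PECAM1 and similar markers were named by detection, and IRF1, CASP4, GBP1P1 and the flanking genes were named outside that rule. Alternatives covered background correction, scaling, filter, probe choice, block, weights and left-out arrays.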

Additional observations from a re-analysis of the deposited data

Results flagged for a closer look

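In siHBO1, the mean log2 level of the 5 GBP genes was 9.96 on replicate 1 and 10.40 to 10.41 on the other 3 arrays, a gap of 0.989 of the group's range, past Dixon's 95% critical value for 4 samples. It was the only 1 of 14 groups checked to do so, and chance marks about 1 in 20. The siCTRL array of the same number was also the lowest of its group, at 9.48. Both replicate 1 arrays stand apart on the first principal component, and the part of that in the GBP levels was not tested.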

How the results depend on the processing

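The differences of all 5 GBP genes were positive under every alternative for which they were taken, 24 for GBP1 and 23 for each other gene. They moved by less than 1 SD between replicates. GBP differences were not taken from the fit with array weights, which is left out of these counts. The alternatives are not independent checks. The replicate block and the changed detection filters returned the main differences, as did the mean of kept probes for GBP2 to GBP5. The blocked runs without replicate 1 or replicate 4 repeated the differences of the unblocked runs on the same arrays. Their median ran from 0.43 to 0.61 (0.44 to 0.61 with 1 array left out), GBP1 from 0.43 to 0.67, GBP2 from 0.09 to 0.31, GBP3 from 0.18 to 0.42, GBP4 from 0.61 to 0.95 and GBP5 from 0.54 to 0.92. GBP4 and GBP5 were called under 1 alternative, the replicate block, and GBP1, GBP2 and GBP3 under none. The count of features past the threshold in limma, 6 without the block (655 at an unadjusted p under 0.05), was 58 with the replicate block, 68 with array weights, 11 with an offset of 50 and 16 without background correction. It was 0 with median scaling, without normalization and with the authors' values (367, 169 and 626 at an unadjusted p under 0.05). Without both replicate 1 arrays it was 17, or 2 with the block, and without both replicate 4 arrays 0 (550 unadjusted), or 31 with the block. With the block and without both replicate 2 or both replicate 3 arrays, settings added after seeing the data, it was 0 (1082 and 1114 unadjusted). With 1 array left out it ran from 0 to 5, and was 0 in 7 of 8 cases (517 to 810 unadjusted), siHBO1 replicate 1 being the exception. The cause of these shifts in count was not tested. The number of arrays limits precision.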
